A study of Mus musculus with 10 samples.

Results

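Interferon response and antigen processing genes are the genes that a cell turns on when interferon, a cytokine of antiviral defence, binds its surface, together with the genes that cut, load and carry peptides to MHC class I. The set described here has 36 members chosen by name, and their Ensembl identifiers were looked up among the 28987 in each file. Values were found for 35 of them. Gbp6 was not analysed here. Of the 35, 34 passed the filter on low values (at least 1 TPM, a level corrected for transcript length and library total, in at least 2 libraries) and were among the 13056 genes tested. Cxcl9 lay under the filter. All members were measured in RNA from ileal crypts, the epithelial pits at the base of the villi in the last stretch of the small intestine, where stem cells, their dividing offspring and Paneth cells sit.

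The 10 libraries form 3 groups. Ctrl holds 3 libraries of VilCreER;Stat5 mice with the genotype STAT5+/+, KO holds 2 of VilCreER;Stat5 mice with the genotype STAT5IEC-/-, and OE holds 5 of VilCreER;icS5 mice with the genotype STAT5IEC+++. VilCreER is a Cre recombinase that the villin promoter drives in intestinal epithelial cells and that tamoxifen activates. The groups thus share the Cre line. Cells outside the epithelium are not its target. The labels do not spell out the icS5 allele or say whether tamoxifen was given, and no mice with icS5 switched off were analysed here, so the line and the overexpression cannot be told apart in comparisons with OE. All mice were male C57Bl6 animals of 12 weeks per the labels, and their crypts were released with 10 mM EDTA at 37 C over 30 min. Nothing in the labels says which libraries came from separate animals, so what a p-value weighs here is the spread among these libraries, which may be technical.

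Type I and type III interferons signal through JAK1 and TYK2 to a complex that holds STAT2 and IRF9 and binds the interferon-stimulated response element (ISRE) in front of antiviral genes. Interferon gamma signals through JAK1 and JAK2, acts on genes with a gamma-activated site (GAS) and switches on IRF1, the immunity-related and guanylate-binding GTPases and the antigen processing genes. Dimers of STAT5, the factor changed in these mice, bind the same kind of palindrome as the GAS. In the gut, type III interferons act chiefly on the epithelium, and interferon gamma comes mainly from T cells and innate lymphoid cells. An epithelial cell can therefore carry this program without making any interferon itself.

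Promoter sequences show how closely the members share these elements. RefSeq promoters (build GRCm38.p6) were found for 26 of the 36 members, and the 250 bases before each start were searched on both strands. The letters GAAA, any 2 bases and GAAA again, the core of the ISRE, were in 15 of the 26 members (57.7%) and in 936 of all 27025 genes with such a promoter (3.46%). They were found in 6 of 6 GTPases (Gbp2, Gbp3, Gbp7, Igtp, Irgm1 and Irgm2) and in 6 of 9 antiviral effectors. The other members had them in 1 of 4 transcription factors, 1 of 3 antigen processing genes, 1 of 2 chemokines, 0 of 1 sensors and 0 of 1 PARP and DTX3L genes. Outside the set they were in 9 of 26 other interferon-stimulated genes (34.6%) and in 1 of 12 immunoproteasome and MHC class I genes. The palindrome TTCNNNGAA, the GAS core, was in 7 of the 26 members (26.9%: Irf1, Ifit2, Oas1a, Bst2, Gbp7, Igtp and Irgm2) and in 8.13% of all genes. In Bst2 matches to both sets of letters overlapped. A match says that the letters are present, not that a factor binds there.
The sequences below are the last 150 bases before the start of 6 members, 5′ to 3′ on the gene's own strand, with matches in capitals. They stand for the 3 arrangements found: ISRE letters alone (Isg15, Ifit1, B2m), both kinds of letters (Oas1a, Igtp) and GAS letters alone (Irf1). Other members with a promoter had neither kind. Isg15 lies on the minus strand at chr4:156200819-156200968 and holds 3 overlapping ISRE matches in 1 run, from 78 to 57 bases before the start.
Isg15: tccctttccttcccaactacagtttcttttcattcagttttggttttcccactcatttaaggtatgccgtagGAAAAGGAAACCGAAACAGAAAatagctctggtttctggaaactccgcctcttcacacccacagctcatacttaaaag
Ifit1, on the plus strand at chr19:34640739-34640888, has its matches on the opposite strand, from 104 to 95 and from 85 to 76 bases before the start, so they read as TTTC, 2 other bases and TTTC.
Ifit1: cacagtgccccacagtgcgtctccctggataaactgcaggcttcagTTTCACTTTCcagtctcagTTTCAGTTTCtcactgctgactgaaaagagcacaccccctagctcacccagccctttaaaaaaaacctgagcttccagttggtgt
B2m, on the plus strand at chr2:122147537-122147686, has 1 ISRE match, from 139 to 130 bases before the start.
B2m: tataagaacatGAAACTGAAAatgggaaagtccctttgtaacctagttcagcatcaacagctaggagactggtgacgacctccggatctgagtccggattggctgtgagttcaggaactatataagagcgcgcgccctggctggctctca
Oas1a, on the minus strand at chr5:120907526-120907675, has 2 overlapping ISRE matches from 20 to 5 bases and a GAS match from 98 to 90 bases before the start.
Oas1a: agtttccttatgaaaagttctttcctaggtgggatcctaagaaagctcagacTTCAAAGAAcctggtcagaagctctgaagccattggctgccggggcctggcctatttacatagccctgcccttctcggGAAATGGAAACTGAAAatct
Igtp, on the plus strand at chr11:58199406-58199555, has a GAS match from 45 to 37 bases and, 2 bases on, an ISRE match from 34 to 25 bases before the start.
Igtp: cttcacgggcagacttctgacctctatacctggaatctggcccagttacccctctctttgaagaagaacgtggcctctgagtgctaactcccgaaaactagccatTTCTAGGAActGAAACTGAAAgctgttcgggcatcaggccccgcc
Irf1, on the plus strand at chr11:53769864-53770013, has 1 GAS match, from 90 to 82 bases before the start.
Irf1: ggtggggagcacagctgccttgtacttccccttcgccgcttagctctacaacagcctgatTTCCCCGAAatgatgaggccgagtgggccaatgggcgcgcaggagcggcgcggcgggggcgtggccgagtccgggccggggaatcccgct

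Some libraries stood apart. In Ctrl 2 mitochondrial transcripts took 83.7% of all TPM, against 43.3% to 57.0% in the other 9, and 8263 genes reached 1 TPM, against 11050 to 11932. Levels below are scaled TPM, which are deposited TPM divided by a median-ratio factor for each library (0.295 in Ctrl 2 and 0.831 to 1.31 in the others). Y-linked transcripts summed to 3.45 TPM in Ctrl 3, 0.2502 in OE 3 and 0.140 in OE 4, against 32.3 to 131 elsewhere, although all the mice are labelled male. Stat5a and Stat5b check the labels: Stat5a was at 1.52, 2.60 and 1.07 scaled TPM (Ctrl 1 to 3), 0.637 and 0.336 (KO 1 and 2) and 1.56, 2.10, 3.56, 2.81 and 2.81 (OE 1 to 5), and Stat5b at 1.72, 1.76 and 0.970 scaled TPM (Ctrl 1 to 3), 0.482 and 0.430 (KO 1 and 2) and 1.49, 3.50, 4.71, 5.53 and 2.65 (OE 1 to 5). In scaled values both KO libraries lay below every Ctrl library for each gene. The library labelled OE 1 lay within the Ctrl range for both genes, and OE 2 did so for Stat5a. Every statement on OE includes these libraries. The depth of the libraries is unknown, because TPM keep no read numbers.

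No member passed the test in any comparison. In limma, with adjusted p-values over all 13056 genes and a threshold of 0.05, 0 of 34 members were called for KO or OE against Ctrl or for OE against KO, beside 0% of all genes called higher and 0% called lower in each. The smallest adjusted p of a member was 0.943, 0.755 and 1 in these comparisons, and robust or weighted limma fits also called 0 members. In KO against Ctrl 1 member, Irf7, had an unadjusted p under 0.05 as lower (1.52% of all genes had one), and 0 as higher (1.94%). In OE against Ctrl 1 member, Nlrc5, had one as higher (3.79%), and 0 as lower (2.31%). Both KO libraries lay above all Ctrl libraries for 0 members (9.09% of all genes). All OE libraries lay below all Ctrl libraries for 0 members (1.52% of all genes) and below both KO libraries for 0 members (4.43%). In OE against KO 0 members had one (1.62% of all genes as higher, 1.33% as lower). All comparisons between groups below are therefore levels and differences that did not pass.

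The directions of the differences were uneven within the set. In KO against Ctrl 27 of 34 members had a log2 difference below 0, as did 46.7% of all genes, and 7 one above 0 (53%), and the median was -0.48 against 0.04 over all genes. In OE against Ctrl 23 of 34 were below 0 (47.9% of all genes) and 11 above 0 (52.1%), with a median of -0.27 against 0.02. In OE against KO 29 of 34 were above 0 (49.9% of all genes) and 5 below 0 (50.1%), with a median of 0.35 against -0.00062. OE and KO were set against the same Ctrl libraries, and both comparisons with KO use the same 2 KO libraries. The directions of these comparisons are therefore tied. Deposited TPM without scaling moved the all-gene median to 0.38 for KO against Ctrl and 0.36 for OE against Ctrl. There the member medians were -0.05 and 0.19, and the members above 0 went from 7 to 16 and from 11 to 23. Without Ctrl 3 the member medians were -0.25 in KO against Ctrl and 0.10 in OE against Ctrl, without Ctrl 1 they were -0.77 and -0.56, and without Ctrl 2 they were -0.31 and -0.07. Without KO 1 the median of OE against KO was 0.04.

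**Figure D1:**
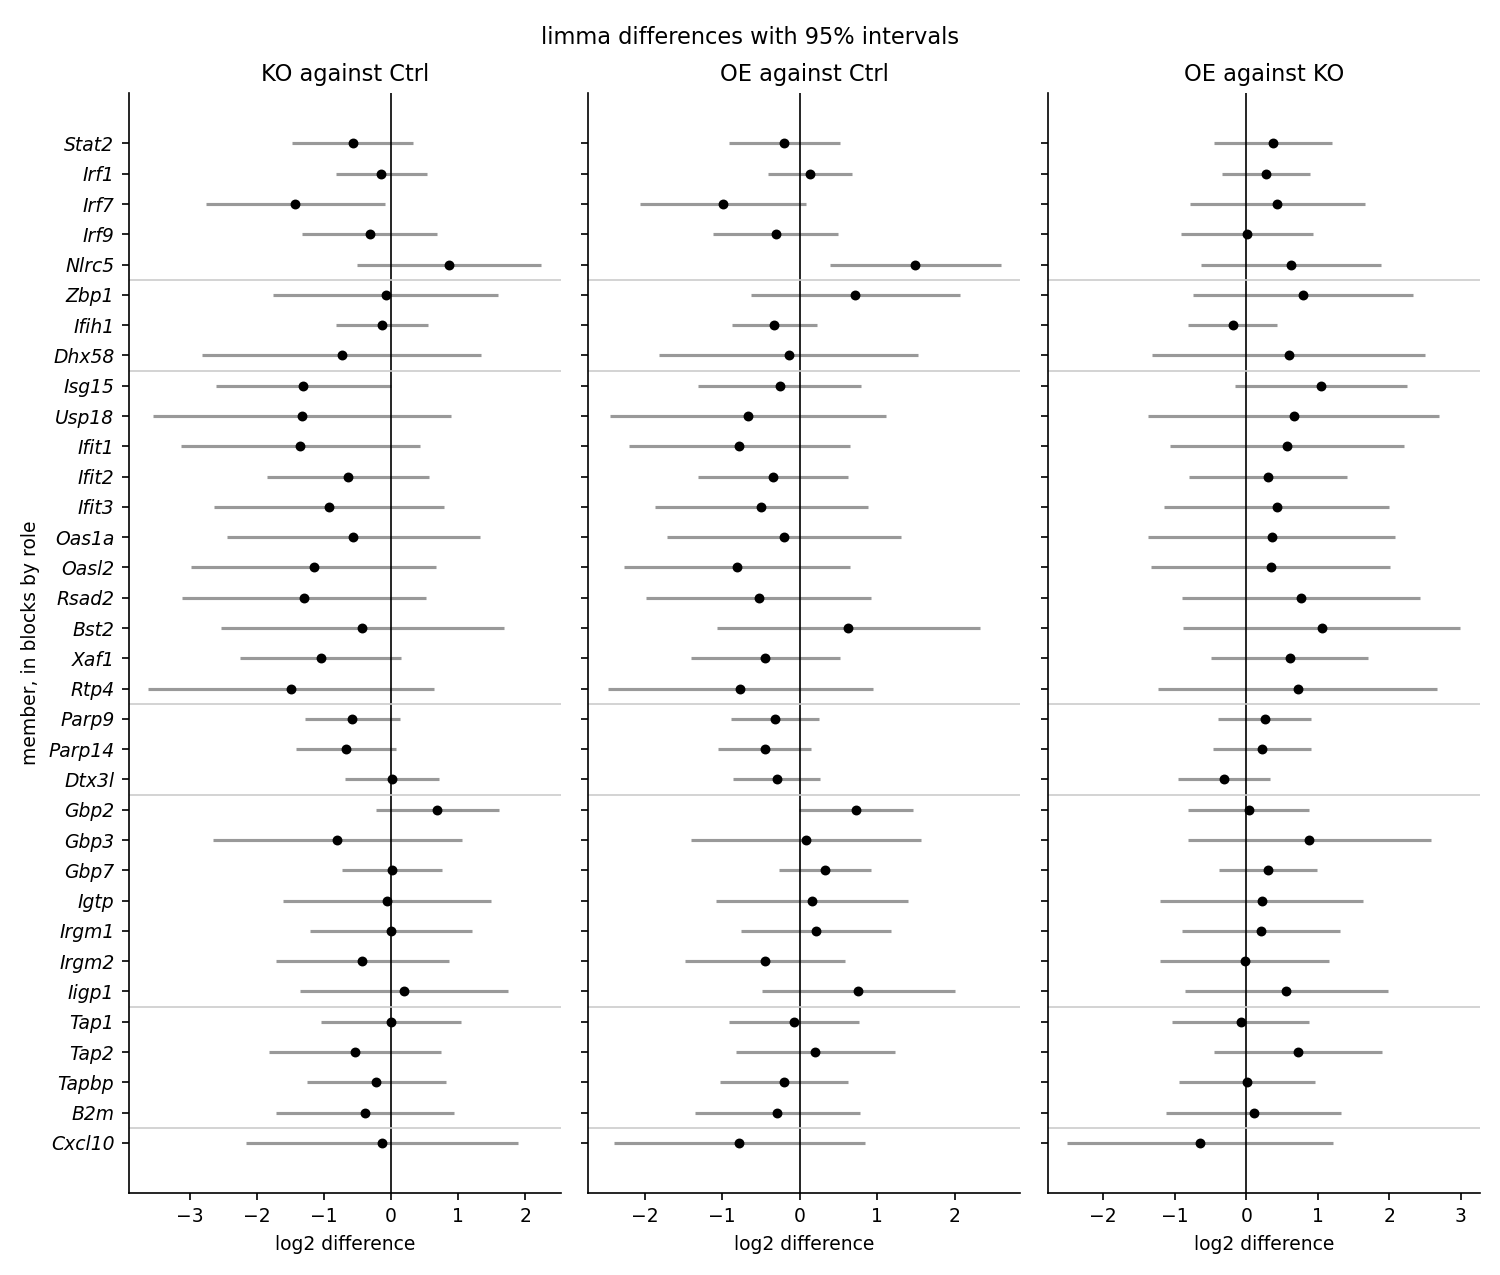
Log2 differences of the 34 tested members (rows, in blocks by role), with KO and then OE set against Ctrl and, last, OE set against KO, from limma on log2(scaled TPM + 1); points are estimates and lines 95% intervals. Without scaling the median of the 34 was -0.05 and 0.19 in the first 2 panels, where it was -0.48 and -0.27 as drawn. The intervals of Irf7 in KO against Ctrl and of Nlrc5 in OE against Ctrl leave out 0, and no member passed after adjustment over all genes.

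The start of the pathway was measured through 80 further genes named by role, of which 67 were tested. The interferons themselves were near the floor. Ifnb1 (interferon beta), Ifnl2 and Ifnl3 (interferon lambda) and Ifne (interferon epsilon) were listed at 0 in all 10 libraries. Ifng (interferon gamma) was listed at 0 in 4 libraries and reached 0.652 scaled TPM, in OE 3, and Ifnk reached 1.03 and was listed at 0 in 6. Receptor transcripts were above 0 in all 10 libraries. Ifngr1, the ligand-binding chain of the interferon gamma receptor, was at 110.0, 179 and 159 scaled TPM (Ctrl 1 to 3), 168 and 107 (KO 1 and 2) and 118, 125, 207, 144 and 126 (OE 1 to 5), and Ifngr2, its partner chain, was between 26.3 and 67.1. Jak1, the kinase that all 3 interferon types use, ranged over 20.8 to 35.4 in Ctrl, 22.4 and 27.7 in KO and 20.8 to 35.3 in OE. Ptpn2, a phosphatase that switches JAK and STAT proteins off, ranged over 10.9 to 29.4 in Ctrl, 26.6 and 33.4 in KO and 20.9 to 30.9 in OE. Group ranges overlapped for these 4 genes. Of 6 receptor genes, 2 had groups that did not overlap in a comparison with Ctrl in scaled values. Ifnar2, a chain of the type I receptor, was at 1.68, 1.56 and 4.54 scaled TPM (Ctrl 1 to 3), 5.34 and 0.959 (KO 1 and 2) and 9.08, 7.70, 4.92, 7.84 and 13.1 (OE 1 to 5). All OE libraries lay above all Ctrl libraries (2.21% of all genes), and the difference of 1.45 (0.48 to 2.42) in OE against Ctrl had an adjusted p of 0.755 in limma. Ifnlr1, the ligand-binding chain of the interferon lambda receptor, ranged over 6.09 to 8.60 in Ctrl, 3.51 and 5.34 in KO and 3.62 to 6.63 in OE. In scaled values both KO libraries lay below all Ctrl libraries (7.27%), and the difference of -0.56 (-1.29 to 0.18) in KO against Ctrl did not pass. Without scaling (factor of 0.295 in Ctrl 2), Ctrl 2 lay below both KO libraries for Ifnlr1.

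For Ifngr1 the log2 differences were -0.13 (-0.89 to 0.63) for KO against Ctrl, -0.0572 (-0.67 to 0.55) for OE against Ctrl and 0.0691 (-0.63 to 0.77) for OE against KO. For Jak1 they were -0.10 (-0.77 to 0.56) for KO against Ctrl, -0.0723 (-0.61 to 0.46) for OE against Ctrl and 0.0326 (-0.58 to 0.65) for OE against KO. Of the 67 genes 0 were called in any comparison. In KO against Ctrl 50 of them were below 0 (46.7% of all genes), with a median of -0.30 against 0.04 over all genes. In OE against Ctrl 41 were below 0 (47.9%), with a median of -0.19 against 0.02. In OE against KO 44 were above 0 (49.9%), with a median of 0.17 against -0.00062. Alternative settings were run for the members and not for these genes, so how far their directions depend on scaling was not tested. Other interferon-stimulated genes made up 25 of the 50 in KO against Ctrl, which was 25 of the 31 tested, with a median of -0.54, while receptors had a median of -0.23. Of those 31 genes, 7 had both KO libraries below all Ctrl libraries in scaled values (7.27% of all genes). In KO against Ctrl 5 had an unadjusted p under 0.05 as lower (1.52%): Cmpk2, Oas2, Oas3, Ifi27 and Mx1. Cmpk2, a mitochondrial nucleotide kinase, had the smallest of these p-values and was at 9.72, 18.2 and 11.5 scaled TPM (Ctrl 1 to 3), 4.84 and 4.76 (KO 1 and 2) and 10.6, 5.24, 8.49, 6.66 and 8.81 (OE 1 to 5). In scaled values both KO libraries lay below all the others (7.27% of all genes had KO below Ctrl and 4.04% had OE above KO). Without scaling (factors of 0.295 in Ctrl 2 and 1.21 in KO 1), Ctrl 2 lay below KO 1 for Cmpk2. For Cmpk2 the log2 differences were -1.24 (-2.002 to -0.48) for KO against Ctrl, -0.65 (-1.25 to -0.0360) for OE against Ctrl and 0.60 (-0.10 to 1.29) for OE against KO, with adjusted p-values of 0.943, 0.755 and 1 in limma. In OE against Ctrl 4 of the 31 genes had an unadjusted p under 0.05 as lower (2.31% of all genes): Trim30a, Ddx60, Cmpk2 and Trim25. There 1, Gbp8, had one as higher (3.79%). Oasl1, a relative of the oligoadenylate synthetases, was at 28.2, 88.4 and 60.7 scaled TPM (Ctrl 1 to 3), 21.05 and 30.1 (KO 1 and 2) and 58.0, 23.9, 13.3, 14.8 and 67.9 (OE 1 to 5). Lgals3bp, a secreted glycoprotein, ranged over 21.2 to 66.8 in Ctrl, 24.6 and 26.6 in KO and 20.96 to 37.9 in OE. The highest values of Lgals3bp and the next highest of Oasl1 among Ctrl libraries were in Ctrl 3, and the OE libraries spanned the KO values of both genes. Among the sensor adaptors, Tbk1, the kinase that activates IRF3, ranged over 30.6 to 61.8 in Ctrl, 28.6 and 37.2 in KO and 26.6 to 52.9 in OE, and Ddx58, the RNA sensor RIG-I, over 26.6 to 67.6 in Ctrl, 12.0 and 28.3 in KO and 14.2 to 30.5 in OE. Of 6 tested sensor adaptors, 1 (Ddx58) had an unadjusted p under 0.05 as lower in KO against Ctrl (1.52% of all genes). Another, Tmem173, had one as higher (1.94%), with a difference of 1.14 (0.14 to 2.14) that did not pass.

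Transcription factors of the response had mixed differences, and their highest levels were in Ctrl 2 or Ctrl 3 for Irf7, Irf9 and Stat2 and in OE libraries for Irf1 and Nlrc5. In KO against Ctrl 4 of 5 were below 0 (median -0.32), in OE against Ctrl 3 of 5 (median -0.20), and in OE against KO 5 of 5 were above 0 (median 0.37). Without scaling 2, 1 and 4 of 5 took those directions. Irf1 (ENSMUSG00000018899, chromosome 11, 53770014 to 53778374, mm10), the factor that interferon gamma induces to drive antigen processing genes, was at 33.4, 59.0 and 44.7 scaled TPM (Ctrl 1 to 3), 35.2 and 45.7 (KO 1 and 2) and 56.6, 44.5, 41.5, 42.5 and 62.1 (OE 1 to 5). It varied little, with a within-group SD of 0.31 on the log2 scale against a median of 0.72 over the members, and the 3 groups overlapped. For Irf1 the log2 differences were -0.15 (95% interval -0.82 to 0.53) for KO against Ctrl, 0.13 (-0.41 to 0.67) for OE against Ctrl and 0.28 (-0.34 to 0.90) for OE against KO.

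Irf7 (ENSMUSG00000025498, chromosome 7, 141262706 to 141266481), the factor that amplifies type I interferon production, was at 16.9, 56.8 and 58.5 scaled TPM (Ctrl 1 to 3), 19.6 and 9.51 (KO 1 and 2) and 27.6, 8.34, 19.9, 22.03 and 23.1 (OE 1 to 5). In scaled values Ctrl 2 and Ctrl 3 lay above all the other libraries, and Ctrl 1 lay inside the range of KO and OE. Without scaling Ctrl 2 was at 16.7 TPM, below KO 1 at 23.7 and OE 5 at 25.8, while Ctrl 3 was still the highest. Its means were 44.1 ± 23.5 (SD, Ctrl, n = 3), 14.6 ± 7.13 (SD, KO, n = 2) and 20.2 ± 7.21 (SD, OE, n = 5). For Irf7 the log2 differences were -1.43 (-2.76 to -0.0866) for KO against Ctrl, -0.99 (-2.06 to 0.0801) for OE against Ctrl and 0.43 (-0.79 to 1.66) for OE against KO, with adjusted p-values of 0.943, 0.755 and 1 in limma. Nlrc5 (ENSMUSG00000074151, chromosome 8, 94434356 to 94527272), the transactivator of MHC class I genes, was at 0.960, 0.168 and 1.46 scaled TPM (Ctrl 1 to 3), 0.672 and 5.28 (KO 1 and 2) and 8.62, 4.98, 2.26, 3.66 and 2.56 (OE 1 to 5). All 5 OE libraries lay above all 3 Ctrl libraries, which 2.21% of all genes did, and KO 2 lay among the OE libraries while KO 1 lay among the Ctrl libraries. Its means were 0.864 ± 0.654 (SD, Ctrl, n = 3), 2.97 ± 3.26 (SD, KO, n = 2) and 4.41 ± 2.58 (SD, OE, n = 5). For Nlrc5 the log2 differences were 0.86 (-0.51 to 2.24) for KO against Ctrl, 1.49 (0.39 to 2.59) for OE against Ctrl and 0.62 (-0.64 to 1.89) for OE against KO, with adjusted p-values of 0.943, 0.755 and 1. Stat2 and Irf9, which belong to the ISRE-binding complex, ranged over 5.37 to 14 in Ctrl, 5.29 and 5.62 in KO and 4.48 to 9.56 in OE for Stat2 and over 6.72 to 21.05 in Ctrl, 8.74 and 11.6 in KO and 5.68 to 13.0 in OE for Irf9. Irf9 shares bases with Rnf31 on the same strand, and how reads were divided there is not given.

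Among the further genes, Irf8, a factor of myeloid cells that is also induced by interferon gamma, ranged over 25.8 to 29.0 in Ctrl, 22.9 and 32.6 in KO and 17.0 to 46.4 in OE, and its groups overlapped.

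Nucleic acid sensors, which detect viral RNA or DNA forms inside the cell, had median differences of -0.14 in KO against Ctrl (3 of 3 below 0), -0.15 in OE against Ctrl (2 of 3 below 0) and 0.59 in OE against KO (2 of 3 above 0). In TPM as deposited the medians of KO against Ctrl and OE against Ctrl turned to 0.26 and 0.24. Zbp1 (ENSMUSG00000027514, chromosome 2, 173206612 to 173218923), a sensor of Z-form nucleic acids that can start necroptosis, was at 4.17, 4.47 and 12.8 scaled TPM (Ctrl 1 to 3), 1.90 and 15.5 (KO 1 and 2) and 23.3, 15.1, 5.74, 7.66 and 9.85 (OE 1 to 5). KO 1 was the lowest library and KO 2 the highest after OE 1, so the KO libraries spanned the Ctrl group and all OE libraries but OE 1. For Zbp1 the log2 differences were -0.0803 (-1.76 to 1.60) for KO against Ctrl, 0.71 (-0.63 to 2.06) for OE against Ctrl and 0.79 (-0.75 to 2.34) for OE against KO. Ifih1 (ENSMUSG00000026896, chromosome 2, 62595798 to 62646255), the RNA sensor MDA5, was at 8.73, 13.4 and 11.9 scaled TPM (Ctrl 1 to 3), 7.68 and 13.1 (KO 1 and 2) and 7.78, 10.2, 7.66, 10.6 and 7.65 (OE 1 to 5). All groups overlapped, and the log2 differences of Ifih1 were -0.14 (-0.82 to 0.55) for KO against Ctrl, -0.33 (-0.88 to 0.22) for OE against Ctrl and -0.19 (-0.82 to 0.44) for OE against KO. Dhx58, the related helicase LGP2, ranged over 0.756 to 16.5 in Ctrl, 0.824 and 5.95 in KO and 1.24 to 7.46 in OE, and its highest value was in Ctrl 3.

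Antiviral effectors, with the ubiquitin-like protein ISG15 and its protease USP18, lay on 1 side of 0 in both comparisons with KO, though in OE against KO 6 of 11 were above 0 in the fit with a replicate block. Both comparisons rest on the same 2 KO libraries, so the second is not a separate result. All 11 had a log2 difference below 0 in KO against Ctrl, with a median of -1.15 and a range from -1.49 (Rtp4) to -0.43 (Bst2), 10 of 11 were below 0 in OE against Ctrl, with a median of -0.50, and all 11 were above 0 in OE against KO, with a median of 0.61. In scaled, quantile-normalized and deposited values the counts were 11, 11 and 11 in KO against Ctrl, 10, 10 and 8 in OE against Ctrl, and 11, 11 and 11 in OE against KO. None of the 11 had an unadjusted p under 0.05 in any comparison, and 0 had both KO libraries below all Ctrl libraries, where 7.27% of all genes did. In scaled values Ctrl 1 lay below at least 1 KO library for all 11, while Ctrl 2 or Ctrl 3 was the highest of the 10 libraries for each of them. Without scaling OE 4 was the highest for Ifit3 and Xaf1. Without Ctrl 3 the count in KO against Ctrl was 9 of 11 with a median of -0.73 and that in OE against Ctrl was 6 of 11. Without Ctrl 1 the KO median was -1.92, without Ctrl 2 it was -0.80 and without KO 2 it was -0.79. With library weights, which count noisier libraries less, 1 of 11 was below 0 in OE against Ctrl and the KO median was -0.26.

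Isg15 (ENSMUSG00000035692, chromosome 4, 156199424 to 156200818), which is attached to other proteins and also secreted, was at 1.82, 6.10 and 13.7 scaled TPM (Ctrl 1 to 3), 2.23 and 1.25 (KO 1 and 2) and 7.21, 3.42, 3.30, 5.598 and 4.12 (OE 1 to 5). Ctrl 3 was highest, and Ctrl 1 lay between the KO libraries. All 5 OE libraries lay above both KO libraries, which 4.04% of all genes did, and Isg15 was the only member with that separation. Its means were 7.22 ± 6.03 (SD, Ctrl, n = 3), 1.74 ± 0.696 (SD, KO, n = 2) and 4.73 ± 1.66 (SD, OE, n = 5). For Isg15 the log2 differences were -1.305 (-2.61 to 0.00429) for KO against Ctrl, -0.26 (-1.31 to 0.79) for OE against Ctrl and 1.04 (-0.16 to 2.24) for OE against KO, with adjusted p-values of 0.943, 0.900 and 1. Oasl2 (ENSMUSG00000029561, chromosome 5, 114896936 to 114912234), of the oligoadenylate synthetase family whose product activates RNase L, was at 7.44, 50.7 and 62.4 scaled TPM (Ctrl 1 to 3), 15.9 and 9.93 (KO 1 and 2) and 30.4, 9.15, 8.14, 24.6 and 19.3 (OE 1 to 5). In scaled values Ctrl 2 and Ctrl 3 lay above every other library and Ctrl 1 below all of them. Without scaling Ctrl 2 was at 14.9 TPM, below KO 1 at 19.3 and OE 1 at 25.3, while Ctrl 3 was still the highest. For Oasl2 the log2 differences were -1.15 (-2.98 to 0.67) for KO against Ctrl, -0.81 (-2.27 to 0.65) for OE against Ctrl and 0.34 (-1.33 to 2.01) for OE against KO. Oas1a (ENSMUSG00000052776, chromosome 5, 120896256 to 120907521), another member of that family, was at 6.60, 11.8 and 57.5 scaled TPM (Ctrl 1 to 3), 15.6 and 7.78 (KO 1 and 2) and 13.2, 15.1, 4.65, 27.4 and 23.1 (OE 1 to 5). Only Ctrl 3 stood above the rest, and without it the difference of Oas1a in KO against Ctrl was 0.30. Oas1a has near-identical neighbours such as Oas1g, so its reads are uncertain. For Oas1a the log2 differences were -0.56 (-2.44 to 1.32) for KO against Ctrl, -0.21 (-1.71 to 1.299) for OE against Ctrl and 0.35 (-1.37 to 2.08) for OE against KO.

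The other 8 effectors also had their highest value in Ctrl 2 or Ctrl 3. Usp18, which removes ISG15 and dampens the type I receptor, ranged over 3.84 to 37.6 in Ctrl, 3.61 and 5.09 in KO and 0.795 to 19.3 in OE, with its highest value in Ctrl 3 and its lowest in OE 3. Ifit1, Ifit2 and Ifit3, which bind foreign RNA and stop its translation, ranged over 3.46 to 40.5 in Ctrl, 2.42 and 7.65 in KO and 4.62 to 13.2 in OE for Ifit1, over 0.290 to 3.76 in Ctrl, 0.609 and 0.711 in KO and 0.254 to 2.10 in OE for Ifit2 and over 0.549 to 7.58 in Ctrl, 0.515 and 1.33 in KO and 0.305 to 5.30 in OE for Ifit3. Ifit3 has a near-identical copy, so its level is uncertain. Rsad2, the antiviral enzyme viperin, ranged over 0.346 to 13.8 in Ctrl, 0.252 and 0.812 in KO and 0.595 to 2.58 in OE, and the Ctrl maximum was Ctrl 2. Bst2, tetherin, which holds budding virus at the membrane, ranged over 0 to 14.1 in Ctrl, 1.301 and 1.38 in KO and 1.15 to 8.12 in OE. It was listed at 0 in Ctrl 2 and highest in Ctrl 3. Xaf1, a pro-apoptotic interferon target, ranged over 3.71 to 9.58 in Ctrl, 1.32 and 4.22 in KO and 2.44 to 9.03 in OE, and Rtp4, a membrane chaperone with antiviral activity, over 1.23 to 17.2 in Ctrl, 0.832 and 3.78 in KO and 1.10 to 10.7 in OE. For 5 of these 8 genes (Ifit1, Ifit3, Rsad2, Xaf1 and Rtp4) Ctrl 2 was the highest of the 10 libraries in scaled values, and for the other 3 it was Ctrl 3. Without scaling Ctrl 2 was the highest for Rsad2 only, Ctrl 3 for Ifit1 and Rtp4, and OE 4 for Ifit3 and Xaf1.

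**Figure D2:**
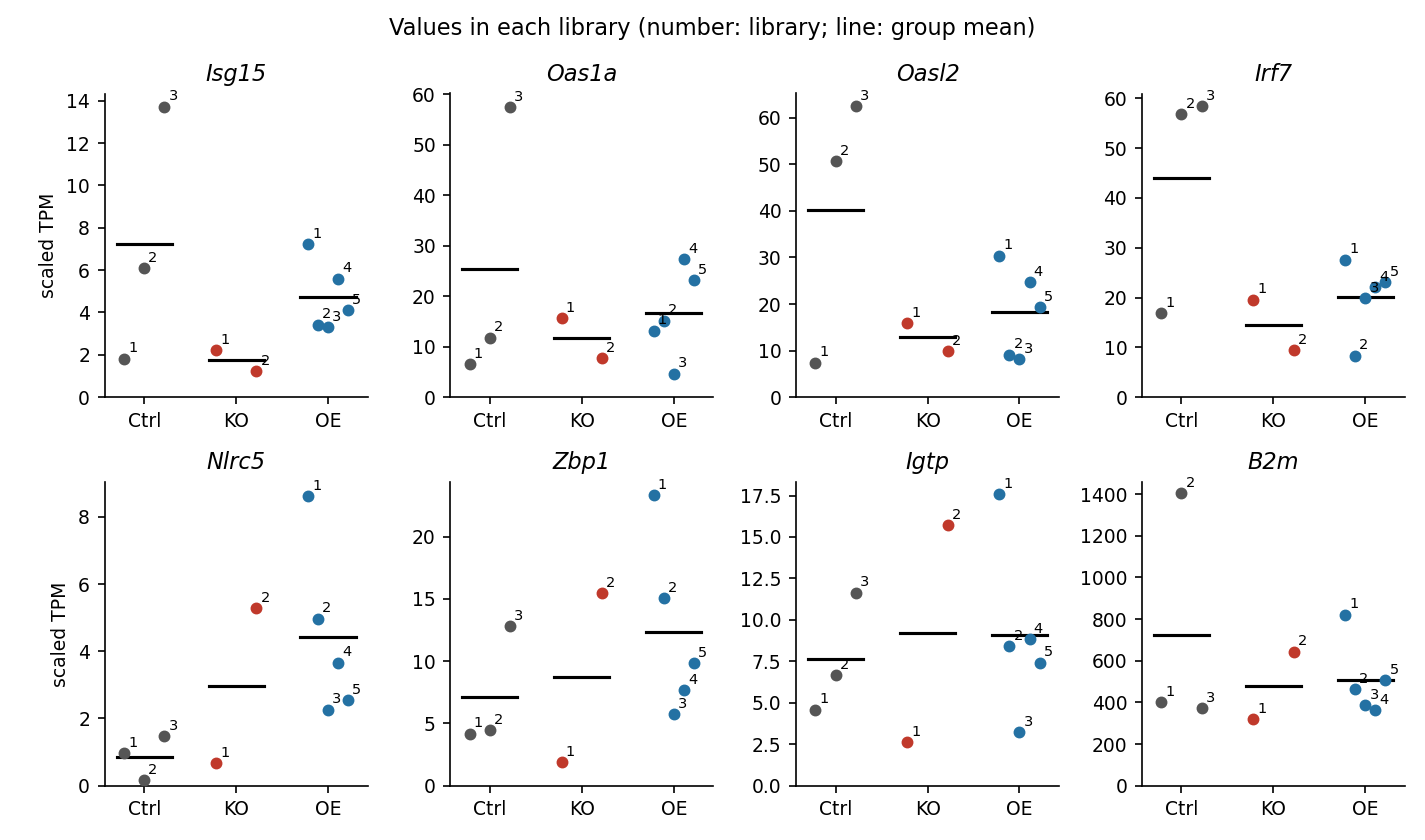
Scaled TPM in each library for 8 members; points are libraries with their number, lines are group means, and each axis starts at 0. Ctrl 3 is the highest library for Isg15, Oas1a and Oasl2, all 5 OE libraries lie above the Ctrl libraries for Nlrc5, and the B2m values of 1404 in Ctrl 2 and 318 in KO 1 mark the ends of its range.

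PARP9, its partner the ubiquitin ligase DTX3L, and PARP14, which add ADP-ribose to proteins and tune interferon signalling, varied less than the effectors. Their median differences were -0.58 in KO against Ctrl (2 of 3 below 0), -0.32 in OE against Ctrl (3 of 3 below 0) and 0.22 in OE against KO (2 of 3 above 0). Without scaling the first was -0.07 and 3 of 3 were above 0 in OE against Ctrl. Parp9 (ENSMUSG00000022906, chromosome 16, 35938470 to 35972605) was at 21.9, 39.7 and 30.6 scaled TPM (Ctrl 1 to 3), 20.3 and 19.2 (KO 1 and 2) and 17.8, 24.5, 20.4, 32.5 and 25.9 (OE 1 to 5). In scaled values both KO libraries lay below all Ctrl libraries, as did those of Gbp3 alone among the other members. That is 2 of 34 members where 7.27% of all genes did so. Without scaling Ctrl 2 lay below both KO libraries for each of these genes. Parp9 was then at 11.7 TPM in Ctrl 2 against 24.5 and 20.1 in KO, and Gbp3 at 0.3915 against 1.17 and 0.3941. For Parp9 the log2 differences were -0.58 (-1.28 to 0.13) for KO against Ctrl, -0.32 (-0.89 to 0.24) for OE against Ctrl and 0.26 (-0.39 to 0.90) for OE against KO. Dtx3l (ENSMUSG00000049502, chromosome 16, 35926511 to 35939151) was at 24.0, 27.9 and 26.9 scaled TPM (Ctrl 1 to 3), 20.5 and 34.2 (KO 1 and 2) and 16.3, 26.8, 18.0, 27.9 and 18.9 (OE 1 to 5), and its groups overlapped. For Dtx3l the log2 differences were 0.0177 (-0.68 to 0.72) for KO against Ctrl, -0.30 (-0.86 to 0.26) for OE against Ctrl and -0.32 (-0.96 to 0.33) for OE against KO. Parp9 and Dtx3l overlap on opposite strands, and without a stated use of strand their reads cannot be told apart where they do. Parp14 ranged over 13.4 to 23.7 in Ctrl, 8.57 and 15.3 in KO and 10.4 to 16.7 in OE.

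Interferon-inducible GTPases, which coat and break the vacuoles of intracellular microbes, had mixed directions in KO against Ctrl and were mostly above 0 in both comparisons of OE, and no test between them and the effectors was run. In KO against Ctrl 4 of 7 were above 0 with a median of 0.0049, in OE against Ctrl 6 of 7 were above 0 with a median of 0.21, and in OE against KO 6 of 7 were above 0 with a median of 0.22. In quantile-normalized and deposited values the KO against Ctrl median was -0.10 and 0.18, with 3 and 6 of 7 above 0. Without KO 1 the OE against KO median was -0.10 with 1 of 7 above 0, and without KO 2 it was 0.67 with 7 of 7. Irgm1 (ENSMUSG00000046879, chromosome 11, 48861968 to 48871683), a regulatory GTPase that guards the cell's own membranes, was at 14.7, 14.3 and 44.3 scaled TPM (Ctrl 1 to 3), 18.0 and 25.0 (KO 1 and 2) and 17.2, 30.7, 14.2, 41.4 and 29.1 (OE 1 to 5). Ctrl 3 and OE 4 were the highest. For Irgm1 the log2 differences were 0.00492 (-1.21 to 1.22) for KO against Ctrl, 0.21 (-0.76 to 1.178) for OE against Ctrl and 0.20 (-0.90 to 1.31) for OE against KO. Igtp (ENSMUSG00000078853, chromosome 11, 58199556 to 58207591), also called Irgm3, was at 4.58, 6.66 and 11.6 scaled TPM (Ctrl 1 to 3), 2.65 and 15.7 (KO 1 and 2) and 17.6, 8.42, 3.21, 8.86 and 7.42 (OE 1 to 5). The KO libraries lay near opposite ends of its range. For Igtp the log2 differences were -0.0615 (-1.61 to 1.49) for KO against Ctrl, 0.15 (-1.08 to 1.39) for OE against Ctrl and 0.22 (-1.20 to 1.63) for OE against KO. Igtp and Irgm2 share bases on the same strand, so their values are not independent, and Irgm2 ranged over 5.85 to 11.9 in Ctrl, 3.23 and 11.9 in KO and 2.65 to 10.4 in OE.

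Gbp2 (ENSMUSG00000028270, chromosome 3, 142620602 to 142638008), a guanylate-binding protein, was at 1.26, 0.734 and 3.02 scaled TPM (Ctrl 1 to 3), 2.08 and 4.30 (KO 1 and 2) and 3.97, 2.38, 4.12, 2.78 and 2.68 (OE 1 to 5). Ctrl 1 and Ctrl 2 were the lowest libraries, and Ctrl 3 lay inside the OE range. Its means were 1.67 ± 1.20 (SD, Ctrl, n = 3), 3.19 ± 1.57 (SD, KO, n = 2) and 3.19 ± 0.797 (SD, OE, n = 5). For Gbp2 the log2 differences were 0.69 (-0.23 to 1.60) for KO against Ctrl, 0.72 (-0.0143 to 1.45) for OE against Ctrl and 0.0321 (-0.81 to 0.87) for OE against KO, with adjusted p-values of 0.943, 0.755 and 1. Among its relatives, Gbp3 ranged over 1.24 to 3.51 in Ctrl, 0.376 and 0.966 in KO and 0.189 to 10.9 in OE and Gbp7 over 0.635 to 1.44 in Ctrl, 0.572 and 1.60 in KO and 1.26 to 2.10 in OE, and close paralogs make their reads uncertain. Iigp1, a GTPase that attacks parasite vacuoles, was listed at 0 in Ctrl 2 and KO 1, and was at most 1.52 in the other libraries except OE 2, at 6.56.

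Antigen processing members had median differences of -0.30 in KO against Ctrl (3 of 4 below 0), -0.14 in OE against Ctrl (3 of 4 below 0) and 0.06 in OE against KO (3 of 4 above 0). In TPM as deposited 3 of 4 were above 0 in KO against Ctrl and 4 of 4 in OE against Ctrl. B2m (ENSMUSG00000060802, chromosome 2, 122147686 to 122153083), the light chain of MHC class I and the most abundant member, was at 399.8, 1404 and 373 scaled TPM (Ctrl 1 to 3), 318 and 643 (KO 1 and 2) and 821, 462, 386, 364 and 509 (OE 1 to 5). Ctrl 2 alone was far above the rest, and its B2m without scaling was 413 TPM, against 385 to 683 elsewhere. Its means were 726 ± 588 (SD, Ctrl, n = 3), 481 ± 229.7 (SD, KO, n = 2) and 508 ± 184 (SD, OE, n = 5). For B2m the log2 differences were -0.39 (-1.72 to 0.94) for KO against Ctrl, -0.29 (-1.35 to 0.78) for OE against Ctrl and 0.10 (-1.12 to 1.32) for OE against KO. Tapbp (ENSMUSG00000024308, chromosome 17, 33915899 to 33929292), tapasin, which holds class I molecules at the peptide transporter, was at 124, 258 and 85.1 scaled TPM (Ctrl 1 to 3), 96.2 and 149.6 (KO 1 and 2) and 169, 115, 95.4, 90.8 and 156 (OE 1 to 5). Groups overlapped, and Ctrl 2 was again highest, though without scaling its 76.1 TPM was the lowest of the libraries. For Tapbp the log2 differences were -0.22 (-1.25 to 0.82) for KO against Ctrl, -0.20 (-1.03 to 0.63) for OE against Ctrl and 0.0154 (-0.93 to 0.96) for OE against KO. Tapbp shares bases with Zbtb22 on the same strand.

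Tap1 and Tap2, the subunits of the transporter that pumps peptides into the endoplasmic reticulum, ranged over 20.6 to 36.05 in Ctrl, 21.7 and 30.8 in KO and 12.0 to 44.7 in OE for Tap1 and over 16.6 to 43.5 in Ctrl, 10.2 and 38.3 in KO and 22.4 to 56.2 in OE for Tap2. Both were highest in OE 1, and Tap2 was lowest in KO 1. The further genes of this arm, the immunoproteasome, peptide trimming and MHC class I heavy chains, were led by H2-K1 and Calr. H2-K1, a class I heavy chain, was at 310.0, 1061 and 599 scaled TPM (Ctrl 1 to 3), 341 and 357 (KO 1 and 2) and 1097, 408, 256, 406 and 613 (OE 1 to 5). Ctrl 2 and OE 1 were the highest, and the KO libraries lay within the range of both other groups. Calr, a chaperone of class I folding, was at 259.9, 293 and 570.2 scaled TPM (Ctrl 1 to 3), 228 and 218 (KO 1 and 2) and 484, 334, 340.2, 429.6 and 461 (OE 1 to 5). In scaled values every Calr value in KO lay below every value in Ctrl and OE. Without scaling (factor of 0.295 in Ctrl 2), Ctrl 2 lay below both KO libraries for Calr. Over all genes 7.27% had both KO libraries below all Ctrl libraries and 4.04% had all OE libraries above both KO libraries. The log2 differences of Calr, -0.65 (-1.47 to 0.16) for KO against Ctrl and 0.86 (0.11 to 1.60) for OE against KO, did not pass. Of 11 tested genes of this arm, 6 were below 0 in KO against Ctrl (median -0.18), 3 in OE against Ctrl (median 0.19) and 4 in OE against KO (median 0.36).

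Both chemokines of the set, which draw activated T cells through the receptor CXCR3, were at or near the floor. Cxcl10 (ENSMUSG00000034855, chromosome 5, 92346638 to 92348889) was at 0, 9.67 and 0 scaled TPM (Ctrl 1 to 3), 1.94 and 0.365 (KO 1 and 2) and 0.542, 0, 0, 0 and 1.26 (OE 1 to 5). It was listed at 0 in 5 libraries, and Ctrl 2 alone held 9.67. For Cxcl10 the log2 differences were -0.14 (-2.17 to 1.89) for KO against Ctrl, -0.78 (-2.40 to 0.84) for OE against Ctrl and -0.64 (-2.50 to 1.22) for OE against KO. Both differences from Ctrl rest on that library: without Ctrl 2 they were 1.09 for KO and 0.40 for OE. Cxcl9 (ENSMUSG00000029417, chromosome 5, 92321347 to 92328079) did not exceed 0.325 in any library and was not tested.

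Members varied widely between libraries of the same group. Their median within-group SD was 0.72 on the log2 scale, against 0.47 over all genes, from 0.28 for Gbp7 to 1.304 for Usp18. Within Ctrl, 31 of 34 members were higher in Ctrl 3 than in Ctrl 1, as were 48.9% of all genes, and 29 of 34 were higher in Ctrl 2 than in Ctrl 1 (45.3%). Within OE, 29 of 34 were higher in OE 4 than in OE 3 (50.5%), and 29 of 34 higher in OE 1 than in OE 3 (49.0%). Between the KO libraries the split was 19 of 34 higher in KO 2 (48.6%). Measured from each gene's mean over the 10 libraries, the median member lay at -0.62, 0.43 and 0.53 (Ctrl 1 to 3), -0.38 and -0.15 (KO 1 and 2) and 0.38, -0.14, -0.57, 0.34 and 0.06 (OE 1 to 5). The median over all genes was -0.12 in Ctrl 2 and between -0.019 and 0.015 in the other libraries. Ctrl 1, KO 1 and OE 3 were thus the low libraries, 1 from each group.

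The blocks of the set did not follow each other in every library. Effectors lay at a median of -0.86, 0.98 and 1.44 (Ctrl 1 to 3), -0.39 and -0.81 (KO 1 and 2) and 0.40, -0.22, -0.75, 0.88 and 0.03 (OE 1 to 5). GTPases lay at -0.46, -0.18 and 0.47 in the Ctrl libraries in that order, -0.51 and 0.45 in the KO libraries, and 0.49, 0.07, -0.59, 0.47 and 0.05 in the OE libraries. Antigen processing genes lay at -0.31, 0.63 and 0.03 in the Ctrl libraries, -0.53 and 0.31 in the KO libraries, and 0.75, -0.17, -0.40, -0.10 and -0.04 in the OE libraries. In KO 2 the effectors were low while the GTPases and antigen processing genes were high. In Ctrl 3 the effectors were at their highest while antigen processing genes were close to their mean. Of the 34 members, 11 had their highest value in Ctrl 2 and 11 in Ctrl 3, where 23.5% and 9.83% of all genes did, and 9 had their lowest in OE 3 and 8 in KO 1 (7.48% and 4.42% of all genes).

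**Figure D3:**
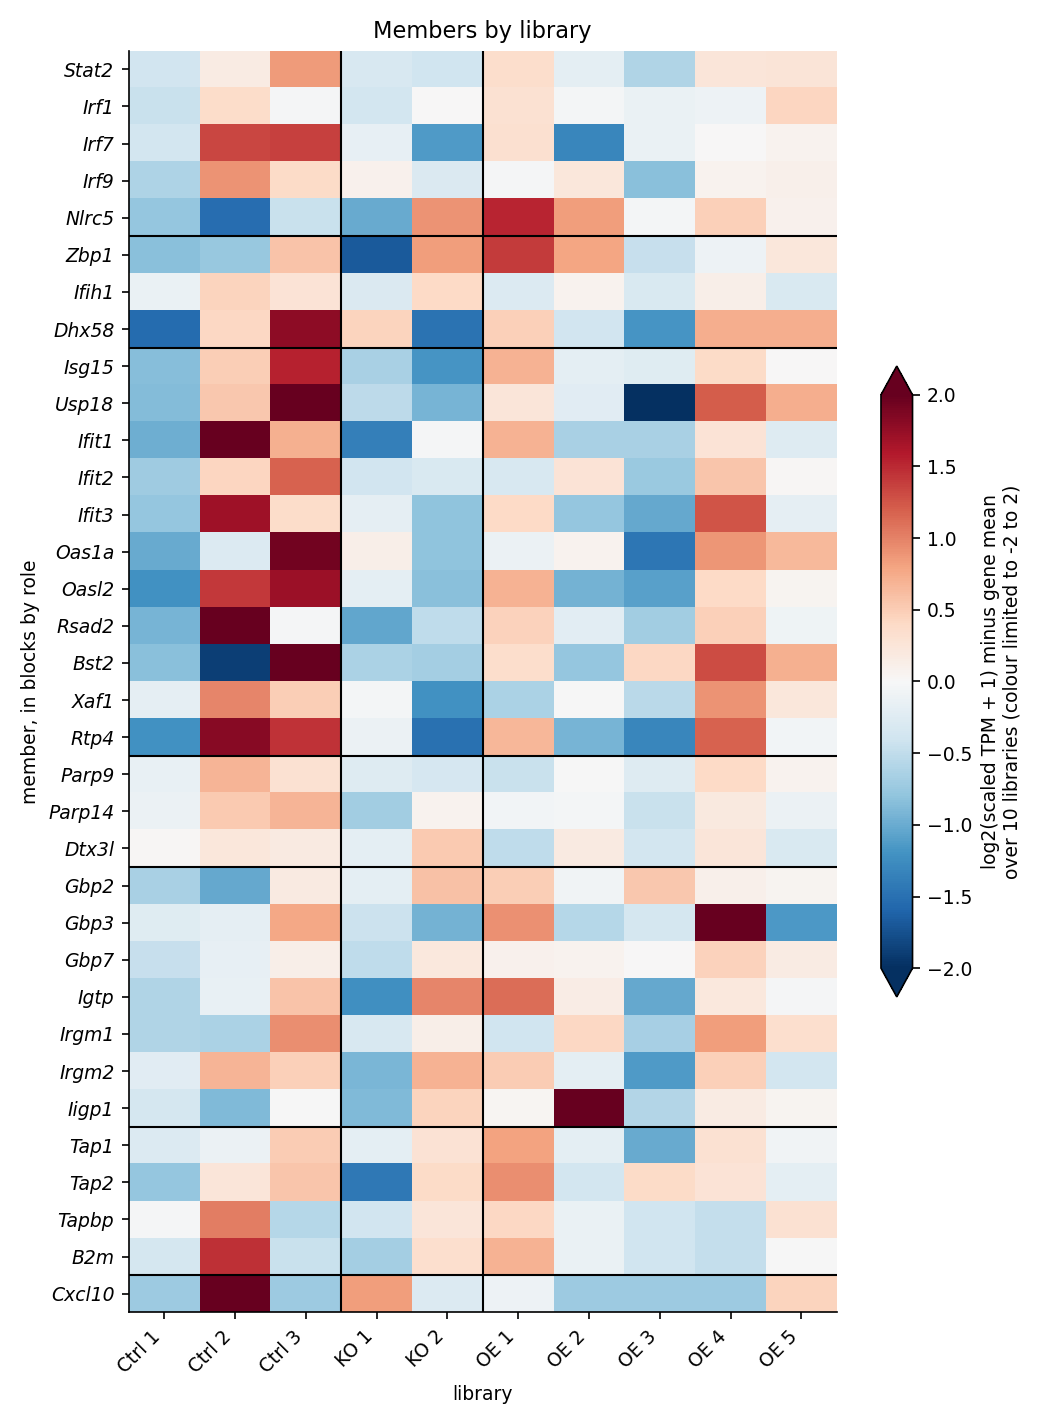
Each tested member (rows, in blocks by role) in each of the 10 libraries (columns), as log2(scaled TPM + 1) minus the gene's mean over the libraries, with colours limited to -2 and 2. The effector block, from Isg15 to Rtp4, is mostly blue in Ctrl 1, both KO libraries, OE 2 and OE 3. It is mostly red in Ctrl 2, Ctrl 3, OE 1 and OE 4, and mixed in OE 5. The GTPase and antigen processing blocks differ in colour between KO 1 and KO 2.

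Markers of the cell types that a crypt preparation can hold are given beside these levels, since a member's RNA can come from any of them. In bulk RNA, fewer cells of a type and less RNA per cell cannot be told apart. The defining markers of the labelled tissue were present: 5 epithelial genes summed to 1653 to 4625 scaled TPM in Ctrl, 2756 and 4343 in KO and 2720 to 4610 in OE, Epcam was between 351 and 708 in all 10 libraries, and Paneth cell and stem cell markers were present in each. Ctrl 2 was lowest in Paneth cell markers (371 against 2192 to 10690) and stem cell markers (59.2 against 87.2 to 564) and highest in enterocyte markers (10230 against 844 to 7630). Of 8 T cell markers all 8 were tested, and their sum was 52.7 to 169 in Ctrl, 26.9 and 71.7 in KO and 94.1 to 404 in OE. The T cell sum was lower in Ctrl 1 (52.7) than in Ctrl 2 and Ctrl 3 (169 and 153), and Ctrl 1 was also the low Ctrl library for the effectors. In Ctrl 2, however, Cd3g alone made up 91.3 of the sum. Cd3e, Cd8b1 and Ccl5 were lower in Ctrl 2 than in Ctrl 1, and the other T cell markers were higher. Among OE libraries OE 5, in the middle of the group for the members, had the highest T cell sum.

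Macrophage and dendritic cell markers (5 of 6 tested) summed to 6.06 to 20.0 in Ctrl, 114 and 184 in KO and 15.3 to 204 in OE, with Lyz2 the largest term in 9 of 10 libraries and Itgam in Ctrl 3. Lyz2 is a paralog of the Paneth cell gene Lyz1, so its reads are uncertain, while Adgre1 did not exceed 0.921 and was listed at 0 in 2 libraries. B and plasma cell markers (5 of 5 tested) summed to 4.82 to 29.8, to 11.6 and 27.2, and to 20.0 to 183 in the same order. Neutrophil markers (4 of 4 tested) stayed between 1.00 and 18.2, fibroblast markers (3 of 4 tested) between 0.976 and 41.1, and endothelial markers (2 of 4 tested) between 0.300 and 5.80. Cdh5, which defines endothelium, was listed at 0 in 9 of 10 libraries, and Ptprc, the leukocyte antigen CD45, was listed at 0 in 4 and was at most 4.11, in OE 4. The 4 general leukocyte markers, Ptprc included (3 of 4 tested), summed to 13.4 to 26.8 in Ctrl, 19.8 and 52.5 in KO and 18.3 to 184.7 in OE. Of these, Coro1a reached 114 and Laptm5 64.05, both in OE 4. The T cell sum of both KO libraries lay below that of every OE library and overlapped the Ctrl range. Of the T cell markers, Cd3e, Gzma, Gzmb and Ccl5 had all OE libraries above both KO libraries (4.04% of all genes). Cd3g, Cd3d, Cd8a and Cd8b1 overlapped. The macrophage and dendritic cell sum lay above every Ctrl library in both KO libraries. The part of these cells in the member values was not tested.

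**Figure D4:**
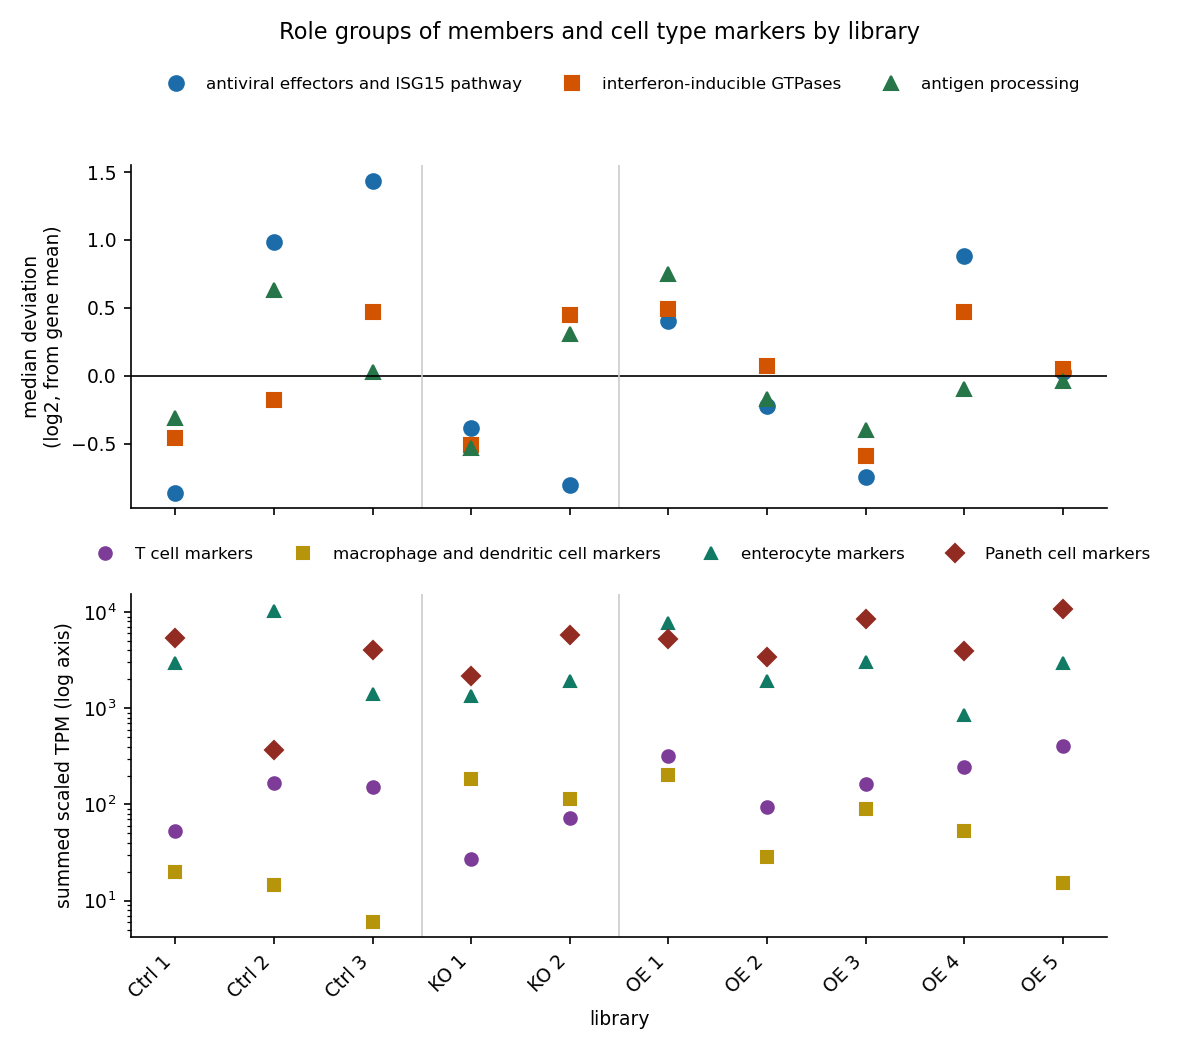
Upper panel: median deviation of effectors (11 genes), GTPases (7) and antigen processing genes (4) from each gene's mean on the log2 scale, by library. Lower panel: summed scaled TPM of T cell, macrophage and dendritic cell, enterocyte and Paneth cell markers on a log axis. Effectors span -0.86 to 1.44 within Ctrl alone, and T cell markers span 26.9 in KO 1 to 404 in OE 5.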

How the data were processed

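RNA of 10 ileal crypt libraries (3 Ctrl, 2 KO and 5 OE, grouped by the labels' titles and genotypes) was analysed from TPM that the authors deposited for 28987 Ensembl IDs per library. The unit is TPM per the file headers of 9 libraries, and that of Ctrl 1 was inferred from its values. The submitters' processing notes name TopHat, Cufflinks and mm10. Not given in the sources used here are the annotation and the tool that gave the TPM. IDs were matched to symbols and coordinates with GENCODE M21 (GRCm38).

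TPM were divided by median-ratio factors over the 11146 genes above 0 in every library. Genes at 1 TPM or more in at least 2 libraries were fitted as log2(scaled TPM + 1), a pseudocount of 1 that understates differences of low genes, in limma 3.58.1 under R 4.3.3, with an intensity trend and 3 group means over all 10 libraries. All genes tested entered the Benjamini-Hochberg adjustment of p-values. The fit was tested on simulated data. Alternatives were quantile normalization or no scaling of the deposited TPM, a filter of 5 TPM or none, pseudocounts of 0.1 and 5, robust fits, fits with library weights or a replicate block, fits of only the groups compared, a threshold of 0.1 on the false discovery rate, and leaving out each library or the 3 low in Y-linked transcripts. The effector counts under these settings were added after seeing the data.

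Members and lists were chosen with earlier results of these data known. Full statistics were given for the 2 members with the highest mean in each role and for the smallest p in each direction of each comparison, and of the 2 most abundant further pathway genes of each role those reported here were named. Some further genes are not reported here. Ifnar2, Ifnlr1, Tmem173, the other interferon-stimulated genes named for an unadjusted p under 0.05, the members given by range and the single marker genes named go beyond this rule. They were chosen after their values were seen.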

Additional observations from a re-analysis of the deposited data

Results flagged for a closer look

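Of the 34 members tested for a single library far from the rest of the 5 OE libraries, 2 were picked out, and chance alone picks about 1 in 20 such groups. Gbp7, a guanylate-binding protein, was at 2.10 scaled TPM in OE 4, against 1.26 to 1.504 in the other OE libraries. Iigp1, a GTPase that acts on parasite vacuoles, was at 6.56 in OE 2, against 0.228 to 1.06 in the other OE libraries. The cause was not tested for either.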

How the results depend on the processing

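No member was called under any alternative, and none passed at a false discovery rate of 0.1. Over all genes, where 0 were called in each comparison, KO against Ctrl gave 5 with no filter and 1 with only the groups compared in the fit. OE against Ctrl gave 1 with only the groups compared and 1 without the 3 libraries low in Y-linked transcripts, and OE against KO gave 7 with no filter and 1 without those 3 libraries. Leaving out 1 library at a time gave 0 to 2 genes in KO against Ctrl, 0 to 1 in OE against Ctrl and 0 to 2 in OE against KO. The number of members above 0 is 7 in KO against Ctrl. It was 16 in TPM as deposited, 17 with library weights, 12 without the 3 libraries, 4 of the 26 members left by a filter of 5 TPM, and 3 to 15 when each library was left out. In OE against Ctrl it is 11, and it was 23, 26, 17, 7 of 26 and 6 to 18 under the same alternatives, while the member median of OE against Ctrl was 0.21 with library weights. In OE against KO it is 29, and it was 17 to 30 when each library was left out. Of the 11 effectors, 1 was below 0 in OE against Ctrl with library weights and 6 without the 3 libraries low in Y-linked transcripts, and 6 to 10 were when each library was left out. The cause of these changes was not tested. With 2 KO libraries, leaving out either assumes that the other varies like the remaining groups.

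None of the differences below passed in any fit, and their signs turned as follows. In TPM as deposited, KO against Ctrl gave 0.37 for Irf1, 0.26 for Zbp1, 0.32 for Ifih1, 0.33 for Igtp, 0.14 for B2m, 0.31 for Tapbp and 0.46 for Cxcl10. There OE against Ctrl gave 0.12 for Ifih1, 0.23 for Oas1a, 0.17 for Parp9, 0.18 for Dtx3l, 0.23 for B2m, 0.31 for Tapbp and 0.12 for Isg15. There OE against KO gave -0.00498 for Tapbp. With library weights, KO against Ctrl gave 0.12 for Irf1, 0.12 for Zbp1, 0.0675 for Ifih1, 0.0103 for Oas1a, 0.21 for Igtp, 0.0927 for B2m, 0.00548 for Tapbp and 0.80 for Cxcl10. There OE against Ctrl gave 0.13 for Oasl2, 0.37 for Oas1a, 0.16 for B2m, 0.00703 for Tapbp, 0.14 for Cxcl10 and 0.32 for Isg15. There OE against KO gave -0.0150 for Gbp2. Without the 3 libraries low in Y-linked transcripts (Ctrl 3, OE 3 and OE 4), KO against Ctrl gave 0.38 for Zbp1, 0.29 for Oas1a and 0.25 for Igtp. There OE against Ctrl gave 0.84 for Oas1a and 0.35 for Isg15. There OE against KO gave -0.0258 for Gbp2. With a pseudocount of 5, KO against Ctrl gave 0.0401 for Zbp1, -0.0156 for Irgm1 and 0.0334 for Igtp. With a pseudocount of 0.1, KO against Ctrl gave 1.08 for Cxcl10. Under quantile normalization, OE against KO gave -0.00547 for Gbp2. When each library was left out in turn, the values of KO against Ctrl ran from -0.34 to 0.37 for Dtx3l, -0.26 to 0.52 for Irgm1, -0.35 to 0.0532 for Irf1, -0.90 to 0.23 for B2m, -0.57 to 0.23 for Tapbp, -0.71 to 1.09 for Cxcl10, -1.33 to 1.17 for Zbp1, -1.175 to 0.30 for Oas1a, -1.16 to 1.03 for Igtp, -0.49 to 0.21 for Ifih1 and -0.0902 to 1.80 for Nlrc5. Those of OE against Ctrl ran from -0.0736 to 0.33 for Irf1, -0.0597 to 0.72 for Irgm1, -0.12 to 0.47 for Igtp, -0.62 to 0.33 for B2m, -0.56 to 0.24 for Tapbp, -1.34 to 0.40 for Cxcl10, -0.82 to 0.65 for Oas1a and -0.88 to 0.31 for Isg15. Those of OE against KO ran from -0.46 to 2.04 for Zbp1, -0.0180 to 0.43 for Irgm1, -0.88 to 1.31 for Igtp, -0.40 to 0.61 for B2m, -0.30 to 0.33 for Tapbp, -0.36 to 0.42 for Gbp2, -0.33 to 1.57 for Nlrc5, -0.0528 to 0.92 for Irf7, -0.54 to 0.16 for Ifih1, -0.11 to 0.82 for Oas1a and -0.67 to 0.0359 for Dtx3l. The cause of these turns was not tested. The filter of 5 TPM removed Gbp2 and Cxcl10, which have no value there.

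Whether the numbers in the titles pair the libraries is not known. Deviations of same-numbered libraries from their group means correlated at -0.17 and 0.06 between KO and Ctrl. They correlated at -0.13, -0.05 and -0.18 between OE and Ctrl, and at 0.06 and -0.08 between OE and KO. The deviations of the KO libraries from their group mean mirror each other, so the values that involve KO are not independent. Weak correlations such as these cannot exclude a shared litter or batch. A fit with the replicate block called 0 genes in KO against Ctrl, 3 in OE against Ctrl and 0 in OE against KO, none of them a member. With the block 6 of 11 effectors were above 0 in OE against KO, and signs turned at -0.00765 for Dtx3l in KO against Ctrl, at -0.11 for Irgm1 in OE against Ctrl and at -0.0360 for Oasl2, -0.34 for Oas1a, -0.26 for Irgm1 and -0.0954 for Gbp2 in OE against KO. Because TPM keep no depth, the precision of low members such as Cxcl10, Iigp1 and Gbp7 is unknown.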
